A study of Rattus norvegicus with 8 samples.

Results

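The insulin-like growth factor binding proteins of rat liver are described here at the level of their mRNA. Members were all probe sets whose platform annotation gives the symbol Igfbp1, Igfbp2, Igfbp3, Igfbp4, Igfbp5, Igfbp6 or Igfbp7, which makes 7 genes of 14217 named on the array and 13 probe sets of 31042. A probe set is a group of short probes on the array that reads a transcript, and its value is the log2 of a background-subtracted signal. Of the 13 probe sets, 10 exceeded the array median on at least 2 of the 8 arrays and were tested, so that each of the 7 genes was tested at least once. The Igfbp6 probe set 1387625_at exceeded it on the 2 Dex+GW3965 arrays alone, so a higher value in that group is part of how it came to be tested, and counts are also given over the other 9.

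Insulin-like growth factors travel in blood bound to this family of secreted proteins, which lengthen the life of the hormones and set how much of them reaches the receptor. The liver makes most of the circulating IGF-I. In blood, IGF-I is held mainly in a large complex with IGFBP-3 or IGFBP-5 and the acid-labile subunit, while IGFBP-1 is a short-lived protein of hepatocytes whose gene is known to be switched on by glucocorticoids and in fasting and switched off by insulin.

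Male Sprague-Dawley rats formed 4 groups of 2 arrays each. The Dex group was gavaged with vehicle for 3 days and received dexamethasone, a synthetic agonist of the glucocorticoid receptor, at 1.5 mg/kg by intramuscular injection on the final day. The GW3965 group was gavaged over the same days with GW3965, a synthetic agonist of the liver X receptors LXRα and LXRβ, at 50 mg/kg and was injected with saline. The Dex+GW3965 group received both compounds at these doses, and the vehicle group received the gavage vehicle and saline, so that every rat was both gavaged and injected. Whole livers were taken 24 h after the injection, and 5 µg of RNA from each was labeled for an Affymetrix rat genome array. The labels give the arrays a and b of a group the same liver number, whereas the methods speak of 2 rats per group, so the p-values measure only the spread between these arrays, which may be technical.

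The medians of the 8 arrays lay between 5.474 and 5.509 on the log2 scale, and the median absolute difference between arrays a and b was 0.0863 to 0.1 across the groups. The summed signal of 7 hepatocyte markers, such as albumin, was 105840 to 107799 in Dex livers, 101767 to 103666 in GW3965 livers, 108071 to 108607 in Dex+GW3965 livers and 104224 to 108005 in vehicle livers, with 1, 0 and 2 of them higher and 3 lower in each treated group. A group mean under 5.488, the mean of the array medians, was taken as not above background. The number of arrays limits the precision of every value below.

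After dexamethasone, Igfbp1 rose 9.15-fold, Igfbp6 rose 1.41-fold on the brighter of its probe sets, and Igfbp3 and Igfbp7 fell 1.29-fold to 1.32-fold. Of the 10 tested member probe sets, 2 were called higher and 3 lower in Dex livers than in vehicle livers, where a call is an adjusted p under 0.05 in limma over 16279 probe sets. Over all tested probe sets, 17.2% were called higher and 24.7% lower in that comparison. After GW3965 alone 0 member probe sets were called higher and 2 lower, both of Igfbp3, against 5.92% and 14.5% of all tested (unadjusted, 0 higher and 3 lower). With both compounds, 3 member probe sets were called higher and 3 lower than in vehicle livers, or 2 and 3 of the 9 without 1387625_at, against 15.6% and 21.2% of all tested. The members' shares with so few probe sets were not set apart from these backgrounds by any test, and the size of the differences is given instead. The median absolute log2 difference of these 9 member probe sets was 0.37 in Dex livers, 0.11 in GW3965 livers and 0.40 in Dex+GW3965 livers relative to vehicle, where that of all tested probe sets was 0.173, 0.113 and 0.153.

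**Figure D1:**
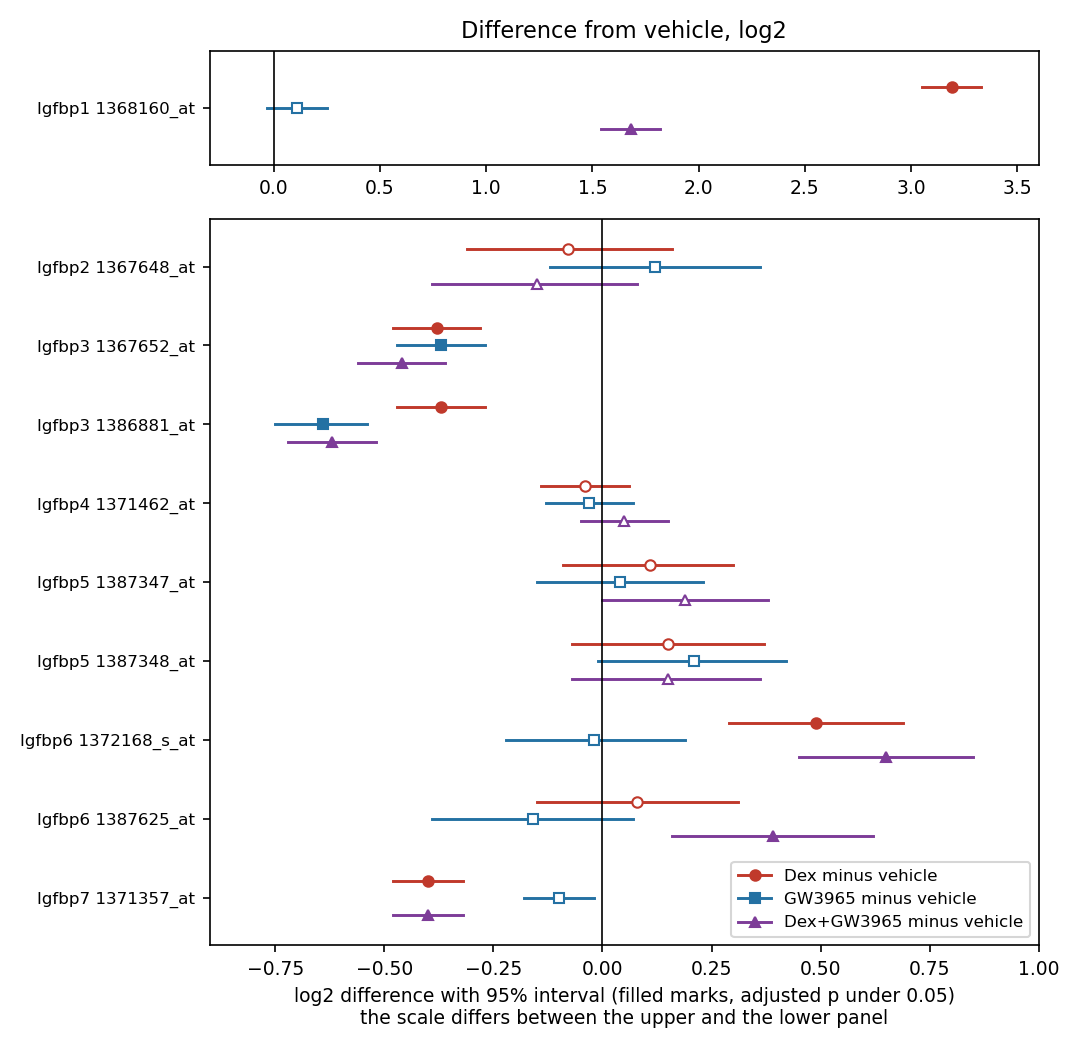
Log2 difference from the vehicle group (horizontal axis) for each tested probe set of the family (vertical axis) in Dex, GW3965 and Dex+GW3965 livers, as limma estimates with 95% intervals; filled marks have an adjusted p under 0.05 (Igfbp6 1387625_at was tested through its Dex+GW3965 arrays alone), and Igfbp1 has a wider scale of its own. Igfbp1 stands at 3.19 in Dex, 0.11 in GW3965 and 1.68 in Dex+GW3965 livers, while every other member lies between -0.64 and 0.65.

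Igfbp1, the hepatocyte protein that binds IGF-I with high affinity and lowers its availability, was read by probe set 1368160_at. Its log2 signal was 11.20 and 11.27 on the Dex arrays, 8.17 and 8.14 on the GW3965 arrays, 9.74 and 9.70 on the Dex+GW3965 arrays, and 7.91 and 8.17 on the vehicle arrays. Dex arrays were the highest, Dex+GW3965 arrays lay between, and the GW3965 arrays fell inside the range of the vehicle arrays, with no overlap among the other groups. The window of its promoter is shown because it is the member with the largest response. It runs from 250 bases before to 50 bases after the annotated start at chr14:86261027-86261326 on the + strand of GRCr8 (RefSeq), and the capitals mark CAAAACA, the motif known from the insulin response element of the human gene, where FOXO proteins bind.

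Igfbp1: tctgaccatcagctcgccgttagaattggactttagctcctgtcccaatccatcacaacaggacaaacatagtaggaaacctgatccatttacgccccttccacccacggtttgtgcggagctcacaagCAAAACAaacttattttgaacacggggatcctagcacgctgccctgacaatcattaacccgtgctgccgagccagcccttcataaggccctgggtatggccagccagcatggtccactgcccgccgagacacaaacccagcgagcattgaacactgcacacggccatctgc

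All 7 members were matched to a RefSeq window of this kind. Each was searched on both strands for TGTTCT, the hexamer of glucocorticoid response elements, for the palindrome of AGAACA and TGTTCT 3 bases apart that contains it, for CAAAACA and GTAAACA, for TATAAA, and for a repeat of AGGTCA 4 bases apart, the arrangement that LXR favours. In the Igfbp1 window only CAAAACA was found, beginning 121 bases before the start, and 6.28% of the 33469 windows of the genome hold it. The palindrome and the AGGTCA repeat were in no member and in 0.0149% and 0.00598% of all windows. Igfbp4 had TATAAA beginning 40 bases before its start, which 14.2% of windows hold, and the windows of Igfbp2, Igfbp3, Igfbp5 and Igfbp7 held none of these motifs. A match is a description of the letters and no measurement of binding. Only exact letters were counted, so a response element that departs from them would be missed. A window without a match may therefore still hold such an element.

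Dexamethasone raised Igfbp1 by 3.19 ± 0.07 on the log2 scale (SE, n = 2 arrays per group; 95% interval 3.05 to 3.33; limma, adjusted p = 1.1e-16). Among the 16279 tested probe sets this was the 20th largest rise. The gap between the vehicle arrays, 0.26, was the widest within any group of this probe set, and the rise was far larger than it. GW3965 alone gave a difference of 0.11 (95% interval -0.03 to 0.25; adjusted p = 0.283), which did not pass the test. That call depended on array vehicle b, and without it the difference was 0.24 with an adjusted p of 0.0070.

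Igfbp1 was lower in livers given both compounds than in those given dexamethasone alone. Mean log2 signal was 9.72 in Dex+GW3965 livers and 11.24 in Dex livers, a difference of -1.51 ± 0.07 (SE, n = 2 each; adjusted p = 1.6e-11), which is 2.86-fold lower and the 19th largest fall in that comparison. It was still 3.20-fold higher in Dex+GW3965 livers than in vehicle livers (log2 difference 1.68, adjusted p = 9.9e-13) and 2.97-fold higher than in GW3965 livers (1.57, adjusted p = 2.6e-12). In Dex livers it was 8.48-fold higher than in GW3965 livers (3.08, adjusted p = 1.6e-16). The order of the groups was thus Dex, Dex+GW3965, GW3965 and vehicle, and the difference between GW3965 and vehicle did not pass the test when all arrays were used.

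**Figure D2:**
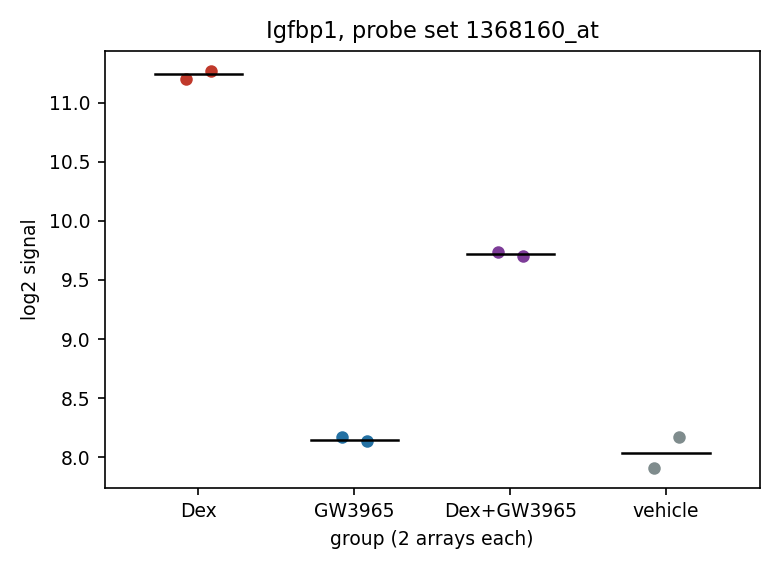
Log2 signal of Igfbp1 (vertical axis) on each of the 8 arrays by group (horizontal axis); points are arrays and bars are group means. The Dex arrays stand at 11.20 and 11.27, the Dex+GW3965 arrays at 9.74 and 9.70, and the GW3965 and vehicle arrays lie together between 7.91 and 8.17.

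The effect of dexamethasone on Igfbp1 was therefore read separately in rats with and without GW3965. It was 1.57 with GW3965 and 3.19 without it on the log2 scale, or 2.97-fold and 9.15-fold. The difference of these effects, the interaction, was -1.62 ± 0.09 (SE; 95% interval -1.82 to -1.42; adjusted p = 9.9e-10), the 30th lowest of all tested probe sets. On the log2 scale 49.2% of the effect was measured in the presence of GW3965. Of the 9 member probe sets other than 1387625_at, 3 had an interaction that passed the test, where 22.7% of all tested did, and they were those of Igfbp1 and Igfbp3.

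**Figure D3:**
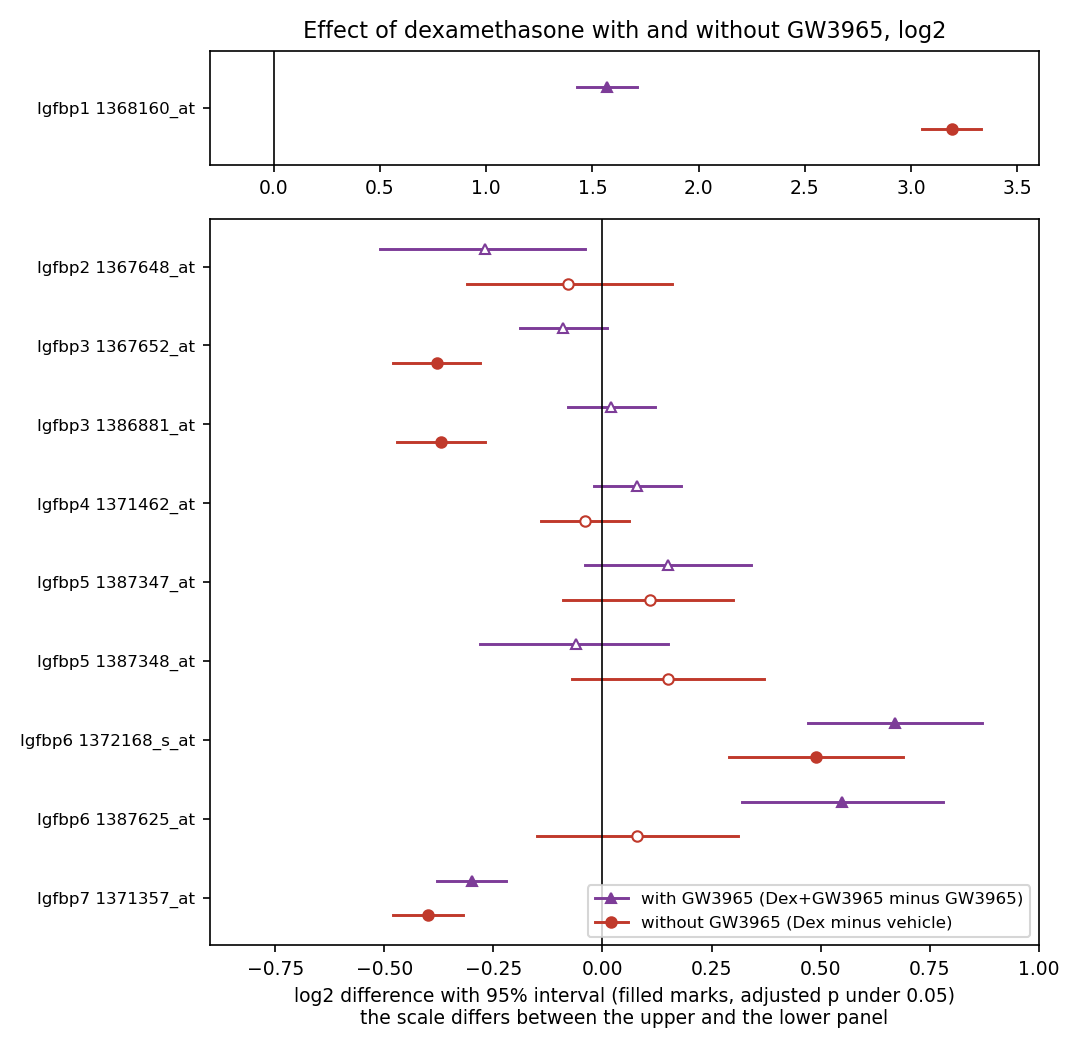
Effect of dexamethasone on each tested probe set (horizontal axis, log2 difference with 95% interval) with GW3965 (Dex+GW3965 minus GW3965) and without it (Dex minus vehicle); filled marks have an adjusted p under 0.05 (Igfbp6 1387625_at was tested through its Dex+GW3965 arrays alone), and Igfbp1 has a wider scale of its own. Igfbp1 has 1.57 with GW3965 and 3.19 without, both Igfbp3 probe sets lie near 0 with GW3965 and at -0.38 and -0.37 without, and Igfbp7 has -0.30 and -0.40.

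Of the 9 member probe sets other than 1387625_at, 2 were called higher and 1 lower in Dex+GW3965 than in GW3965 livers, against 19.0% and 16.8% of all tested. Those called higher were Igfbp1 1368160_at and Igfbp6 1372168_s_at, and the lower one was that of Igfbp7. Of the same 9, 0 were called higher and 2 lower in Dex+GW3965 than in Dex livers, against 13.3% and 9.38% of all tested. Unadjusted, 1 of all 10 was higher and 2 lower. The higher one was 1387625_at, which was tested through its Dex+GW3965 arrays alone. Between Dex and GW3965 livers 3 of the 9 were called higher and 1 lower in Dex livers, against 19.3% and 19.9% of all tested. These 7 comparisons share arrays, so their calls are not independent of each other.

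Igfbp3, the main carrier of IGF-I in the circulating complex, made in rat liver by non-parenchymal cells, was read by 2 probe sets and fell in all 3 treated groups. On 1386881_at the log2 signal was 9.53 and 9.50 on the Dex arrays, 9.25 and 9.22 on the GW3965 arrays, 9.28 and 9.23 on the Dex+GW3965 arrays, and 9.84 and 9.91 on the vehicle arrays. On 1367652_at it was 9.29 and 9.32 in Dex, 9.31 and 9.33 in GW3965, 9.19 and 9.25 in Dex+GW3965, and 9.67 and 9.71 in vehicle livers. Every treated array lay below both vehicle arrays on both probe sets.

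The fall of Igfbp3 after dexamethasone was of similar size on both probe sets, whereas that after GW3965 was deeper on 1386881_at. After dexamethasone Igfbp3 fell by 0.37 on 1386881_at and by 0.38 on 1367652_at (log2; adjusted p = 5.7e-06 and 3.4e-06), which is 1.29-fold and 1.30-fold lower. After GW3965 it fell by 0.64 and by 0.37 on the same probe sets (adjusted p = 2.3e-08 and 2.0e-05), and with both compounds by 0.62 and by 0.46 (adjusted p = 8.9e-09 and 3.9e-07). In Dex livers 1386881_at was 0.28 higher than in GW3965 livers (adjusted p = 1.2e-04), but 1367652_at differed by -0.01 (95% interval -0.11 to 0.09; adjusted p = 0.888). So the probe sets disagreed on whether the fall differed between the compounds.

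The falls of Igfbp3 did not add up. With GW3965, dexamethasone changed 1386881_at by 0.02 (95% interval -0.08 to 0.12) and 1367652_at by -0.09 (95% interval -0.19 to 0.01), and neither passed the test. The interaction was 0.39 on 1386881_at (adjusted p = 3.8e-04) and 0.29 on 1367652_at (adjusted p = 0.00482). After quantile normalization of the arrays, that of 1367652_at was 0.17 with an adjusted p of 0.086. Set against Dex livers, Dex+GW3965 livers had 0.25 less on 1386881_at (log2 difference -0.25, adjusted p = 7.4e-04) and a difference of -0.08 on 1367652_at that did not pass (adjusted p = 0.241).

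Most stellate cell and fibroblast markers were lower in each of the 3 treated groups, as Igfbp3 was, and other non-parenchymal markers varied. The summed signal of 9 tested stellate cell and fibroblast markers was 3439 to 3562 in Dex livers, 4458 to 4572 in GW3965 livers, 3332 to 3347 in Dex+GW3965 livers and 5723 to 5812 in vehicle livers. That sum was lower in Dex than in GW3965 livers. Igfbp3 was 0.28 higher in Dex than in GW3965 livers on 1386881_at and differed by -0.01 on 1367652_at. The sum is of linear signal, so Col3a1 weighs most in it. Its mean log2 signal over the 8 arrays was 11.31, and that of the next brightest, Reln, was 8.88. Of these 9 genes, 7 fell and 1 rose in Dex livers, 8 fell in GW3965 livers and 6 fell in Dex+GW3965 livers. Lum, Lrat, Col1a1 and Col1a2 fell each time. The riser in Dex livers was Dcn, with means of 8.41 there, 6.90 in GW3965, 7.76 in Dex+GW3965 and 7.84 in vehicle livers. Pdgfrb fell in Dex livers on its brightest probe set but was 0.49 higher on 1379211_at (limma, adjusted p = 0.00377). On 1391394_s_at it was 0.24 higher and did not pass (adjusted p = 0.102). Further probe sets of Reln, Col1a1 and Col1a2 fell in Dex livers too. Hgf lay under the background level on all 8 arrays. The summed signal of 6 sinusoidal endothelial markers was 3061 to 3082 in Dex livers, 3747 to 3760 in GW3965 livers, 2647 to 2679 in Dex+GW3965 livers and 3765 to 3826 in vehicle livers, with 4, 2 and 5 of the 6 lower, 1 higher in GW3965 livers, and none under the background level on all arrays. That of 7 Kupffer cell markers was 3433 to 3453 in Dex, 4736 to 4751 in GW3965, 3607 to 3684 in Dex+GW3965 and 3691 to 3854 in vehicle livers, and 3, 0 and 4 of the 7 fell while 1, 3 and 1 rose. The 3 tested cholangiocyte markers summed to 292.1 to 297.6 in Dex, 306.3 to 316.7 in GW3965, 483.9 to 497.7 in Dex+GW3965 and 339.2 to 362.0 in vehicle livers, with 0, 1 and 2 higher and 1, 2 and 1 lower. Krt19, 1 of these 3, exceeded its array median on the vehicle arrays alone (5.83 and 5.91). Its means of 4.96 in Dex, 5.38 in GW3965 and 5.18 in Dex+GW3965 livers were not above background. A lower value in those groups is part of how Krt19 came to be tested, so its calls are given as a description. The part of these cell types in the fall of Igfbp3 was not tested. In whole liver, fewer cells of a type and less RNA per cell cannot be told apart.

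In the rat annotation Igfbp3 and Igfbp1 are neighbours on chromosome 14, and they moved in opposite directions after dexamethasone. The Igfbp3 window is shown for comparison with that of Igfbp1. It lies at chr14:86277895-86278194 on the - strand of GRCr8 (RefSeq), holds none of the motifs searched and so has no capitals.

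Igfbp3: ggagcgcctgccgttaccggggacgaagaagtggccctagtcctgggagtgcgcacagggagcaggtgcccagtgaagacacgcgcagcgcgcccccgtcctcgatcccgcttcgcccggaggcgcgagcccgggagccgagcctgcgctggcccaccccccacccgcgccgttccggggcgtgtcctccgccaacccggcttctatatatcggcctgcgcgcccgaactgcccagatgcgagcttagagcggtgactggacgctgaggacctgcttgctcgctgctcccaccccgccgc

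Guanine and cytosine made up 71.7% of the Igfbp3 window and 54% of the Igfbp1 window, with 36 and 13 CpG dinucleotides. Of all windows, 94.1% had a lower share than that of Igfbp3 and 57.2% a lower share than that of Igfbp1. Igfbp2 and Igfbp5 are likewise neighbours, on chromosome 9, and no probe set of either passed the test in any comparison.

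Igfbp7, a secreted protein of vessel walls that binds IGFs only weakly and is the most distant relative in the family, was read by 1371357_at. Its log2 signal was 10.23 and 10.25 on the Dex arrays, 10.55 and 10.53 on the GW3965 arrays, 10.24 and 10.24 on the Dex+GW3965 arrays, and 10.64 and 10.64 on the vehicle arrays. Both groups given dexamethasone lay below the others, and no array of Dex or Dex+GW3965 livers overlapped the GW3965 or vehicle arrays. Igfbp7 fell by 0.40 ± 0.04 in Dex livers and by 0.40 ± 0.04 in Dex+GW3965 livers (log2, SE, n = 2 arrays each; 1.32-fold lower in both; adjusted p = 1.8e-07 and 2.1e-07). In GW3965 livers the difference was -0.10 (95% interval -0.18 to -0.02), which did not pass after adjustment (adjusted p = 0.0817).

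No difference that GW3965 made to the response of Igfbp7 passed the test. Dex+GW3965 and Dex livers differed by 0.00 (95% interval -0.09 to 0.08), and with GW3965 the effect of dexamethasone was -0.30 (adjusted p = 7.4e-06), or 75.4% of that without it on the log2 scale. The interaction was 0.10 (95% interval -0.02 to 0.21; adjusted p = 0.229). The summed sinusoidal endothelial markers were also lowest in the groups given dexamethasone. So were the summed stellate cell and fibroblast markers and the summed Kupffer cell markers. Unlike Igfbp7, the endothelial markers were lower in Dex+GW3965 livers (2647 to 2679) than in Dex livers (3061 to 3082), with 4 of 6 called lower. The part of these cell types in the fall of Igfbp7 was not tested.

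Igfbp6, which prefers IGF-II to IGF-I, was read by 1372168_s_at, whose suffix marks a set that may match more than 1 transcript, and by the dimmer 1387625_at. On 1372168_s_at the log2 signal was 7.01 and 7.05 on the Dex arrays, 6.46 and 6.59 on the GW3965 arrays, 7.30 and 7.08 on the Dex+GW3965 arrays, and 6.59 and 6.49 on the vehicle arrays. The 4 arrays with dexamethasone lay above the 4 without it, and GW3965 arrays overlapped those of vehicle. Igfbp6 rose by 0.49 ± 0.10 in Dex livers and by 0.65 ± 0.10 in Dex+GW3965 livers on this probe set (log2, SE; 1.41-fold and 1.57-fold; adjusted p = 4.2e-04 and 2.9e-05). In GW3965 livers it differed from vehicle by -0.02 (95% interval -0.22 to 0.19).

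The effect of dexamethasone on Igfbp6 1372168_s_at was 0.67 with GW3965 (1.59-fold, adjusted p = 2.2e-05) and 0.49 without it. Their difference of 0.18 (95% interval -0.11 to 0.46) did not pass the test (adjusted p = 0.386), unlike that of Igfbp1. Whether the interactions of the 2 genes differ from each other was not tested.

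On 1387625_at the log2 signal was 5.45 and 5.47 in Dex, 5.23 and 5.22 in GW3965, 5.80 and 5.74 in Dex+GW3965, and 5.42 and 5.35 in vehicle livers. Only the Dex+GW3965 arrays reached the background level of 5.488 and their own array medians, so that the probe set was tested through that group alone and its values are given as a description. Taking the background level in place of the dimmer mean, it was at least 0.28 higher on the log2 scale in Dex+GW3965 than in vehicle or GW3965 livers, while Dex and vehicle livers were both under that level and have no fold.

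Igfbp6 was the other member that rose after dexamethasone, so its window is shown beside that of Igfbp1. It lies at chr7:135154669-135154968 on the + strand of GRCr8 (RefSeq), and the capitals mark AGAACA, which is TGTTCT on the opposite strand, and GTAAACA, a FOXO-type motif.

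Igfbp6: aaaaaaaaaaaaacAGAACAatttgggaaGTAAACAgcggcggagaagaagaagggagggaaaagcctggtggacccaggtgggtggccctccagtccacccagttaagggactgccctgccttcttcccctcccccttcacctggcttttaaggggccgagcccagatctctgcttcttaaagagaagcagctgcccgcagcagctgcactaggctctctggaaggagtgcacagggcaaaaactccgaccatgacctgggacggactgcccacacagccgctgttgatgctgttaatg

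These letters began 236 and 221 bases before the start and did not overlap, and 20.7% and 3.78% of all windows hold them. The window was 55.3% guanine and cytosine.

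Igfbp2, Igfbp4 and Igfbp5 did not pass the test in any of the 7 comparisons when all arrays were used. Igfbp2, a carrier that rises in fasting and is made by hepatocytes, had 6.39 and 6.70 in Dex, 6.80 and 6.69 in GW3965, 6.35 and 6.59 in Dex+GW3965, and 6.64 and 6.61 in vehicle livers on 1367648_at. Arrays a and b of Dex livers differed by 0.31, more than the gap between any pair of group means. The difference of Igfbp2 from vehicle was -0.08 in Dex (95% interval -0.31 to 0.16), 0.12 in GW3965 (-0.12 to 0.36) and -0.15 in Dex+GW3965 livers (-0.39 to 0.08). Its nearest approach to a call was between Dex+GW3965 and GW3965 livers, at -0.27 (adjusted p = 0.0678). It passed there without Dex array a or b (-0.27, adjusted p = 0.046 and 0.047) or Dex+GW3965 array b (-0.40, adjusted p = 0.033), and without Dex array b the difference between Dex and GW3965 livers was -0.35 (adjusted p = 0.041).

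Igfbp4, an inhibitor of IGF action that the protease PAPP-A cleaves, had the narrowest range of the 10 tested probe sets. On 1371462_at it had 9.54 and 9.53 in Dex, 9.51 and 9.57 in GW3965, 9.66 and 9.58 in Dex+GW3965, and 9.54 and 9.60 in vehicle livers, a range of 0.14 over the 8 arrays. The intervals of its differences from vehicle were -0.14 to 0.06 in Dex, -0.13 to 0.07 in GW3965 and -0.05 to 0.15 in Dex+GW3965 livers.

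Igfbp5, a matrix-bound member that can also enter the complex with the acid-labile subunit, has 5 probe sets, of which 2 were tested. On 1387347_at it had 6.56 and 6.56 in Dex, 6.44 and 6.54 in GW3965, 6.59 and 6.69 in Dex+GW3965, and 6.44 and 6.47 in vehicle livers. On 1387348_at it had 5.93 and 5.93 in Dex, 5.97 and 6.02 in GW3965, 5.96 and 5.90 in Dex+GW3965, and 5.79 and 5.78 in vehicle livers. All 6 treated arrays of 1387348_at were above both vehicle arrays, but the differences of 0.15, 0.21 and 0.15 did not pass the test (adjusted p = 0.263, 0.168 and 0.290). The remaining probe sets, 1397830_at, 1370960_at and 1396152_s_at, lay under the background level on all 8 arrays, with highest values of 4.53, 4.32 and 3.57, and were not tested.

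**Figure D4:**
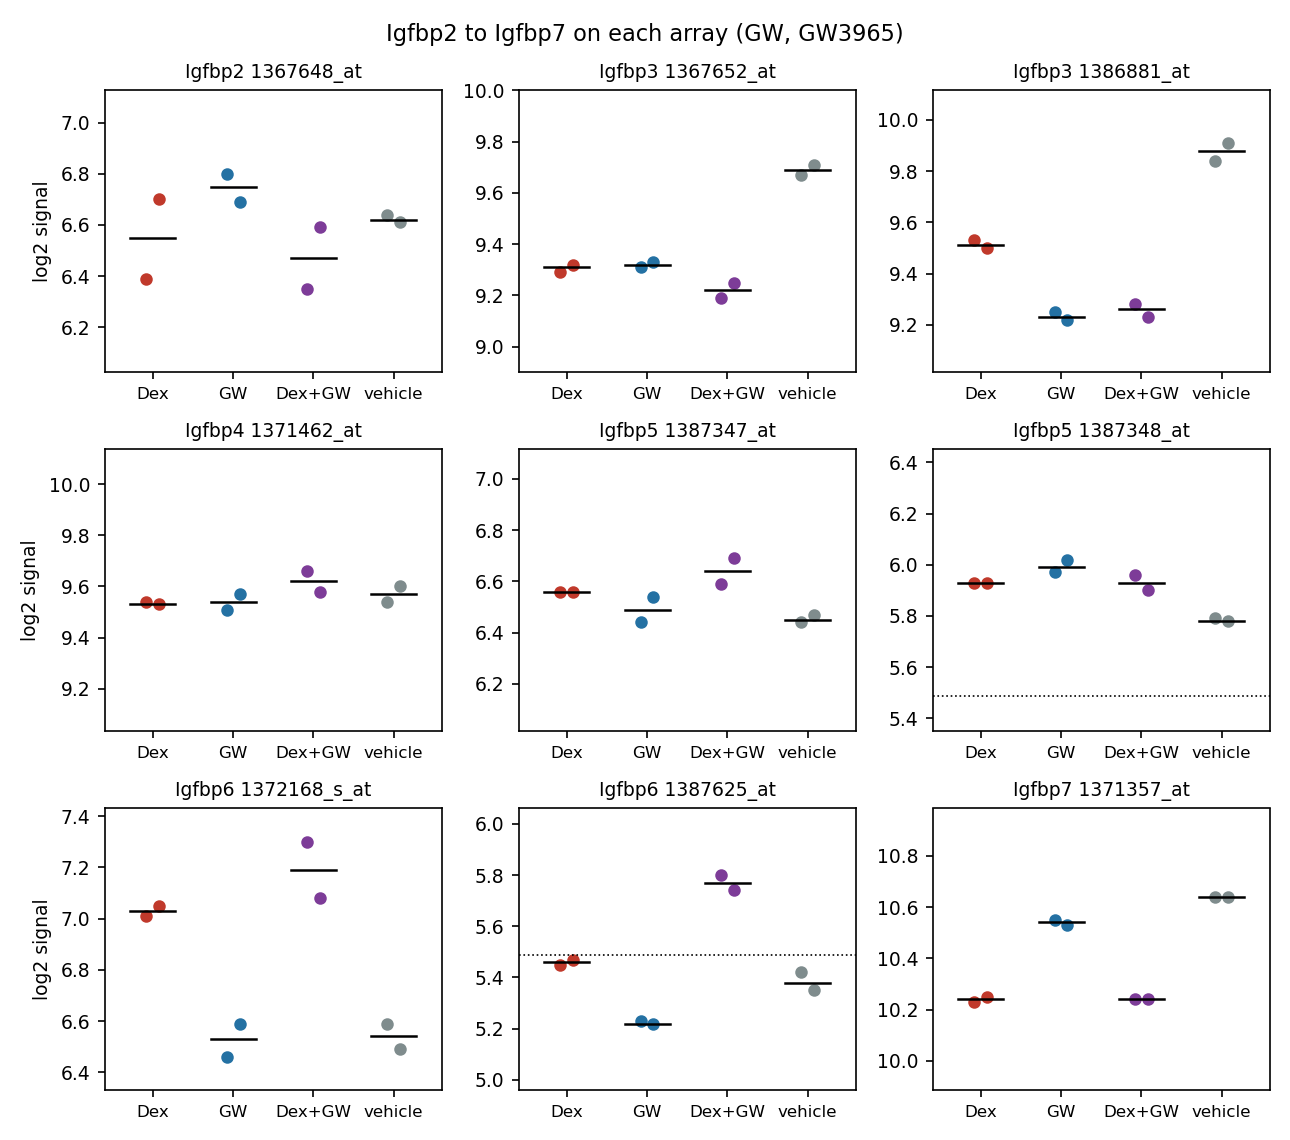
Log2 signal (vertical axis) on each array for the 9 tested probe sets of Igfbp2 to Igfbp7, by group (horizontal axis; GW is GW3965); points are arrays, bars are group means, every panel spans the same range of log2 signal, and the dotted line is the background level of 5.488. Both Igfbp3 panels have the vehicle arrays on top, Igfbp7 is lower in both dexamethasone groups, Igfbp6 1372168_s_at is higher in them, and Igfbp4 stays within 0.14.

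Igf1 and Igfals, the ligand and a partner of the binding proteins, fell in both groups in which Igfbp1 rose. Of 6 tested genes for IGF ligands, receptors and the acid-labile subunit, each read by its brightest probe set, 0 were called higher and 2 lower in Dex livers, 0 and 1 in GW3965 livers, and 1 and 2 in Dex+GW3965 livers. Over all tested probe sets, 17.2% were higher and 24.7% lower in Dex, 5.92% and 14.5% in GW3965, and 15.6% and 21.2% in Dex+GW3965 livers. Counts of this kind, here and for the other gene lists, were not tested against these shares. Igfals, which encodes the acid-labile subunit made by hepatocytes, had 9.40 and 9.47 in Dex, 10.72 and 10.69 in GW3965, 9.88 and 9.80 in Dex+GW3965, and 10.98 and 10.96 in vehicle livers. It fell by 1.53 in Dex livers (adjusted p = 8.4e-15), by 0.26 in GW3965 livers (adjusted p = 3.1e-04) and by 1.13 in Dex+GW3965 livers (adjusted p = 7.9e-13), and no 2 groups overlapped. With both compounds Igfals was 0.41 higher than with dexamethasone alone (adjusted p = 2.0e-06), with an interaction of 0.67 (adjusted p = 4.3e-07).

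Igf1, the ligand itself, had 12.72 and 12.74 in Dex, 13.43 and 13.34 in GW3965, 12.81 and 12.90 in Dex+GW3965, and 13.53 and 13.39 in vehicle livers on its brightest probe set. It fell by 0.73 in Dex livers (adjusted p = 3.1e-10) and by 0.61 in Dex+GW3965 livers (adjusted p = 5.3e-09), and differed by -0.08 in GW3965 livers (adjusted p = 0.247). Its other tested probe sets fell by 0.88 and by 1.21 in Dex livers. The probe sets disagreed on Dex+GW3965 against Dex livers, where the brightest was 0.13 higher (adjusted p = 0.0536) and 1388469_at 0.10 higher (adjusted p = 0.0612) with neither passing, while 1382599_at was 0.39 higher and passed (adjusted p = 0.00517). The Igf1 interaction was 0.20 on the brightest (adjusted p = 0.0268), 0.50 on 1382599_at (adjusted p = 0.0102) and 0.07 on 1388469_at (adjusted p = 0.406). On their brightest probe sets Igf2, Igf1r and Igf2r did not pass in any of the comparisons with vehicle, with differences of -0.14, 0.10 and 0.08 in Dex livers, but Igf2r was 0.25 higher in Dex+GW3965 livers on 1367636_at (adjusted p = 0.0188). Insr, the insulin receptor, was 0.40 higher in Dex+GW3965 livers on its brightest probe set (adjusted p = 0.00215) and 0.24 higher on 1369051_at, which did not pass (adjusted p = 0.0985).

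Among proteases that cut the binding proteins and their inhibitors, 5 of 8 listed genes were tested, with 1 lower in Dex livers, 1 higher and 1 lower in GW3965 livers and 1 lower in Dex+GW3965 livers. The shares of all tested probe sets called lower in these groups were 24.7%, 14.5% and 21.2%, and 5.92% were higher in GW3965 livers. Stc1, the inhibitor of PAPP-A named stanniocalcin 1, was the gene called lower in Dex livers and again in Dex+GW3965 livers; its means of 5.04 in Dex and 5.07 in Dex+GW3965 livers were under the background level, against 5.84 in vehicle livers, so it fell by at least 0.35 on the log2 scale in both. In GW3965 livers Htra1, a secreted serine protease, fell by 0.23 (adjusted p = 0.00171) and Htra2, its mitochondrial relative, rose by 0.26 (adjusted p = 0.0234). Of 10 other genes whose proteins carry an IGFBP domain, 3 were tested, and in Dex livers 2 were higher and 1 lower. Ccn2, the connective tissue growth factor, had a mean of 7.95 in Dex, 6.32 in GW3965, 6.18 in Dex+GW3965 and 6.19 in vehicle livers, so that its rise of 1.76 (adjusted p = 3.9e-10) was not seen with GW3965 present (interaction -1.90, adjusted p = 8.2e-08). Ccn3, a relative of Ccn2, rose by at least 1.06 in Dex livers and at least 0.77 in Dex+GW3965 livers, and Crim1, a transmembrane protein that binds BMPs, fell by 1.53, by 0.70 and by 0.96 in Dex, GW3965 and Dex+GW3965 livers.

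Genes known to regulate Igfbp1 transcription, each read by its brightest probe set, went in both directions, and 9 of the 11 listed were tested. In Dex livers 4 were higher and 3 lower, against 17.2% and 24.7% of all tested probe sets. In GW3965 livers 2 were higher and 1 lower, against 5.92% and 14.5%. In Dex+GW3965 livers 3 were higher and 0 lower, against 15.6% and 21.2%. Foxo1, the factor through which insulin acts on Igfbp1, had 8.38 and 8.30 in Dex, 7.05 and 6.96 in GW3965, 7.82 and 7.92 in Dex+GW3965, and 7.26 and 7.49 in vehicle livers. On this probe set it was 0.96 higher in Dex livers (adjusted p = 2.6e-08), 0.49 higher in Dex+GW3965 livers (adjusted p = 1.0e-04) and 0.37 lower in GW3965 livers (adjusted p = 0.00334). Another Foxo1 probe set, 1377502_at, also rose in Dex livers (0.68, adjusted p = 1.5e-05) but did not pass in Dex+GW3965 livers (0.24, adjusted p = 0.0571) or in GW3965 livers (0.05, adjusted p = 0.755), so the probe sets disagreed on both. They disagreed on the interaction too, which was -0.10 on the brightest (adjusted p = 0.606) and -0.49 on 1377502_at (adjusted p = 0.0148). Dex+GW3965 livers had less Foxo1 than Dex livers on both (-0.47, adjusted p = 3.9e-04, and -0.43, adjusted p = 0.00306).

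Ppargc1a, a coactivator of gluconeogenic genes, rose in Dex livers and passed the test in no other group. It had 6.65 and 6.46 in Dex, 5.46 and 5.80 in GW3965, 5.83 and 5.71 in Dex+GW3965, and 5.75 and 5.50 in vehicle livers, a rise of 0.92 in Dex livers (adjusted p = 1.4e-05) and an interaction of -0.78 (adjusted p = 0.00479). Foxa2, a hepatocyte factor that can bind the same elements as FOXO proteins, ran the other way, with 7.56 and 7.49 in Dex, 9.15 and 9.09 in GW3965, 9.19 and 9.20 in Dex+GW3965, and 9.07 and 9.07 in vehicle livers. Its fall of 1.54 in Dex livers (adjusted p = 1.4e-13) was not seen with GW3965 present (interaction 1.62, adjusted p = 7.2e-11). Nr3c1, the glucocorticoid receptor gene, had 8.25 and 8.20 in Dex, 9.31 and 9.21 in GW3965, 8.78 and 8.87 in Dex+GW3965, and 9.04 and 8.90 in vehicle livers on its brightest probe set and fell by 0.75 in Dex livers (adjusted p = 1.8e-08); its other tested probe set, 1368222_at, gave -0.25 (adjusted p = 0.0937). Foxo3 rose by 0.46 and Foxa1 by 0.58 in Dex livers.

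**Figure D5:**
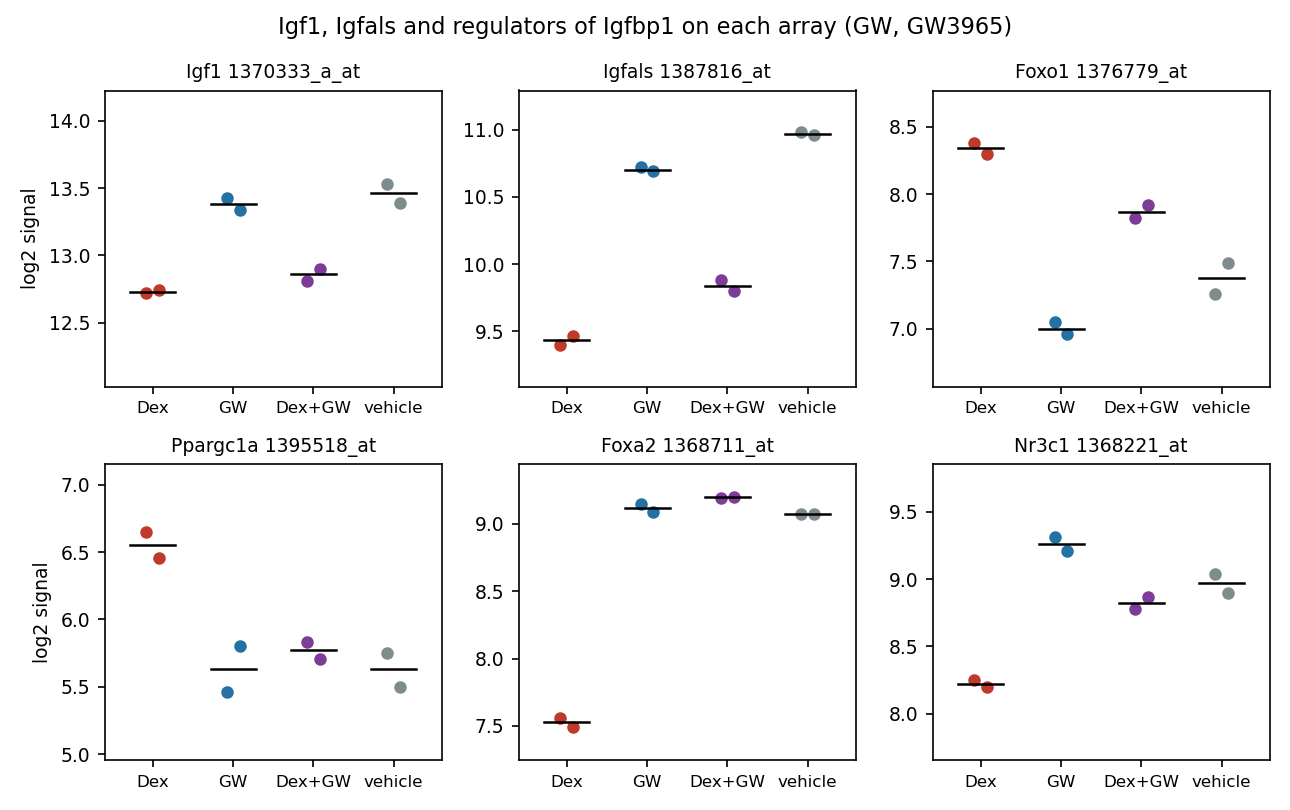
Log2 signal (vertical axis) on each array for the brightest probe sets of Igf1, Igfals, Foxo1, Ppargc1a, Foxa2 and Nr3c1, by group (horizontal axis; GW is GW3965); points are arrays, bars are group means, and every panel spans the same range of log2 signal. Igf1 and Igfals are lower in both dexamethasone groups, Foxo1 is higher in them, and Ppargc1a and Foxa2 stand apart in Dex livers alone.

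Of 7 tested genes that carry insulin and growth hormone signals, each read by its brightest probe set, 2 fell in Dex livers, 1 rose and 1 fell in GW3965 livers, and 1 fell in Dex+GW3965 livers. Over all tested probe sets 24.7%, 14.5% and 21.2% were called lower in these groups, and 5.92% higher in GW3965 livers. Ghr, the growth hormone receptor through which growth hormone drives Igf1 and Igfals, was 1.04 lower in Dex livers (adjusted p = 1.8e-12), 0.67 lower in Dex+GW3965 livers (adjusted p = 1.2e-09) and 0.32 higher in GW3965 livers (adjusted p = 4.0e-05) on its brightest probe set. Another Ghr probe set, 1368924_at, also fell in Dex livers (-1.14, adjusted p = 1.8e-06) but passed neither in Dex+GW3965 livers (-0.35, adjusted p = 0.0534) nor in GW3965 livers (-0.08, adjusted p = 0.759). Its interaction was 0.87 (adjusted p = 0.00293), against 0.05 on the brightest (adjusted p = 0.603). Irs2, an adaptor of the insulin receptor, fell by 0.53 in Dex and by 0.54 in GW3965 livers but differed by -0.01 in Dex+GW3965 livers (interaction 1.06, adjusted p = 1.8e-05).

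Igfbp1 was the member whose group means differed by at least 1 on the log2 scale, and the genes whose pattern over the 8 arrays was most like its own were looked up among 9833 tested genes. They were Lpin1 (Pearson r = 0.9984), Mtmr7 (0.9966), Syne1 (0.9956), Cyp3a18 (0.9955) and Gnpat (0.9954). The 8 points come from 4 groups, so that these values rest mainly on the group means. Lpin1, which encodes the phosphatidate phosphatase lipin 1, differed from vehicle by 3.05 in Dex, 0.08 in GW3965 and 1.50 in Dex+GW3965 livers, where Igfbp1 had 3.19, 0.11 and 1.68. Mtmr7 had 2.03, -0.05 and 0.93, and the other 3 genes had 0.70 to 0.74 in Dex livers and 0.37 to 0.41 in Dex+GW3965 livers.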

How the data were processed

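The authors deposited log2 signals for 31099 probe sets on each of 8 arrays. Per the methods, the authors re-mapped the probes to UniGene, used perfect-match probes alone and subtracted the background by MAS; the submitters' processing notes name MAS5. The log2 scale was read from the range of 2.497 to 14.95. Further normalization is not given in the sources used here, and since the array medians lay within 0.035 none was added.

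After 57 control probe sets were removed, 16279 of 31042 were kept that lay above their array's median on at least 2 arrays. Of the 31042, the platform annotation gives 20826 exactly 1 symbol, 436 several and 9780 none; 20758 symbols were matched to RefSeq genes by Entrez ID. A model of group means was fitted over the whole set of arrays (R 4.3.3, limma 3.58.1; eBayes with an intensity trend; 4 residual and 12.7 prior degrees of freedom). p-values were adjusted by the Benjamini-Hochberg method over all 16279, and called at 0.05. The interaction is the effect of dexamethasone with GW3965 minus that without. The script was tested on simulated data.

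All probe sets of the members are reported; the brightest stands for a listed gene. From each list, up to 6 called genes with the largest differences from vehicle are named, with Igf1, Igf2, Igf1r, Igf2r and Igfals in any case, and the 5 genes most correlated with a member that differs by at least 1 between groups. Members and lists were chosen with earlier results of these data known. The alternatives were quantile normalization, 2 other filters, other eBayes settings, fits to the compared groups alone, a replicate block, leaving out each array, and the methods' one-sample t-test.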

Additional observations from a re-analysis of the deposited data

Results flagged for a closer look

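The effect of dexamethasone differed between rats with and without GW3965, by a test of the difference itself, on Igfbp1 and on both tested probe sets of Igfbp3. On Igfbp1 1368160_at the effect with GW3965 minus that without was -1.62 on the log2 scale (limma, adjusted p = 9.9e-10), with 1.57 with GW3965 and 3.19 without. On Igfbp3 the difference was 0.39 on 1386881_at (limma, adjusted p = 3.8e-04) and 0.29 on 1367652_at (adjusted p = 0.00482). Dexamethasone lowered Igfbp3 in rats without GW3965 and had no called effect in those with it. After quantile normalization of the arrays, the difference on 1367652_at did not pass the test. On Igfbp6 1387625_at it was 0.47 (adjusted p = 0.0385), but that probe set passed the filter on low values through the Dex+GW3965 arrays alone, so this p is given as a description. Its Dex, GW3965 and vehicle means were not above background, so its size was not measured, it did not pass with no filter (adjusted p = 0.053) or when any Dex, GW3965 or vehicle array was left out (adjusted p = 0.051 to 0.099), and on the brighter 1372168_s_at the difference of 0.18 did not pass (adjusted p = 0.386). Among all 16279 tested probe sets 22.7% had such a difference. With 2 arrays in a group it cannot be said which of them is outlying, so no array was called an outlier. Each array was left out in turn, as described below.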

How the results depend on the processing

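The sign of every member difference that was called stayed the same under all alternatives. The methods' one-sample t-test has 1 degree of freedom here: after Benjamini-Hochberg it called 0 member probe sets in each of the 7 comparisons (0 to 3 of all tested), including Igfbp1 at 3.19, 1.68, -1.51, 1.57, 3.08 and -1.62 (adjusted p = 0.20 to 0.37). Unadjusted it called 4 members for GW3965 and 3 for Dex+GW3965 against vehicle and 2 interactions, and did not call Igfbp1 at 1.68. Leaving out each array moved Igfbp1 within 3.06 to 3.33 (Dex), -0.02 to 0.24 (GW3965; 0.24 without vehicle b, adjusted p = 0.0070) and 1.55 to 1.81 (Dex+GW3965) against vehicle, -1.55 to -1.48 against Dex, 1.55 to 1.59 against GW3965, 3.05 to 3.12 (Dex against GW3965) and -1.75 to -1.49 (interaction).

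With the letters as a replicate block, the Igfbp6 1387625_at interaction was lost (0.47, adjusted p = 0.053), as it was with no filter and without any vehicle, Dex or GW3965 array (0.051 to 0.099); the block changed no other member call. The a minus b deviations of groups correlated at -0.232 to 0.0832, so the letters were not taken to pair the arrays. All calls for GW3965 fell to 2109 and 1791 without its array a or b, against 3325 in the fit reported, and those for Dex+GW3965 against Dex to 2375 without Dex b and 2347 without Dex+GW3965 b, against 3700. Quantile normalization gave 1208 higher and 1505 lower for GW3965 where the fit reported gave 963 and 2362, and 1843 and 1589 interactions where it gave 2572 and 1129. The unadjusted t-test called 1896 to 3236 per comparison, where limma called 3325 to 6811. The cause of these shifts was not tested. Signal over background was the limit for Igfbp6 1387625_at and for 3 of the 5 Igfbp5 probe sets.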
